A study of Mus musculus with 54 samples.

Results

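Malat1, Neat1, Kcnq1ot1, Meg3, Gm28153 and Gm29266, RNAs annotated as noncoding, and Zbtb20, a protein-coding gene, were followed through every library of an adult mouse kidney study, as 7 of the 33126 genes listed in any of its files. They were chosen because earlier looks at these libraries and their known nuclear location put most of them higher in isolated nuclei than in whole cells. The level in nuclei against cells is therefore given as a description with no test, and the tests concern dissociation temperature, storage, nuclei preparation and tissue state. The study had 54 libraries in 18 groups of 3, 39 of them from 10x Genomics droplets in 13 groups and 15 of them bulk RNA-seq. Each library of a group came from another mouse, so the spread is between mice, and p-values measure the spread between these 3 samples.

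AFAPIL.1DEL C57BL/6J males of 19 weeks, littermates and called C57BL/6J below, gave kidneys that were dissociated either at 37 °C (warm) or on ice with a cold-active protease (cold). Each suspension was profiled fresh, after methanol fixation and storage for 3 months, and after cryopreservation for 6 weeks with a spin at 400g (10x v2 chemistry), and as rRNA-depleted bulk. Balb/c males of 18 weeks gave cold-dissociated fresh cells, nuclei sorted by fluorescence (FANS) after 3 spins at 500g (3x500g) and rRNA-depleted bulk of intact kidney (10x v2). Balb/c females of 15 weeks gave cold-dissociated cells, fresh or cryopreserved for 2 weeks with a spin at 1200g, nuclei by FANS after 3x500g, by FANS after 1 spin at 2000g (1x2000g) or by a sucrose gradient, and poly(A)-selected bulk of intact kidney and of the cold suspension (10x v3). Strain, sex, age and chemistry cannot be told apart between these sets, and whole cells of all sets were counted on exonic reads but nuclei on exonic and intronic reads. Levels are counts per 1000000 (CPM) of a library's unique molecular identifiers (UMIs) without mitochondrial genes, or of its reads in bulk.

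Without mitochondrial genes, total UMIs per library ran from 811794 to 10425547 in C57BL/6J cells and from 1362810 to 18609459 in Balb/c cells. In nuclei they ran from 7629138 to 35170947. Bulk libraries held 2138678 to 30378701 counted reads, also without mitochondrial genes. The kidney markers Umod, Slc12a1 and Aqp2 were above 0 in 54 of 54 libraries and Lrp2 in 50. No pair of libraries shared more than 2.05% of the smaller one's barcodes. Cell classes were rebuilt by clustering without the 7 genes and named from markers ("proximal tubule-like" and so on), and doublets were not removed. Between 0 and 6658 genes of a droplet library are listed at exactly 0, and only 0 to 852 are held by 1 to 9 barcodes, so a 0 need not mean that no UMI was seen. Such a gene is called "listed at 0", and no fold is given against a group whose libraries are all listed at 0.

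Nuclear-retained RNAs stay in the nucleus instead of being exported to the cytoplasm for translation. Malat1 RNA gathers in nuclear speckles, the stores of splicing factors, and its main form carries no conventional poly(A) tail: RNase P cuts the transcript before a tRNA-like fold, and U-rich motifs pair with a genomically encoded A-rich tract in a triple helix that guards the end. The long form of Neat1 is the scaffold of paraspeckles and ends in the same way, whereas its short form is polyadenylated. Kcnq1ot1 is an imprinted antisense RNA that silences neighbouring genes in cis, Meg3 is an imprinted RNA made from the maternal allele, and Zbtb20 encodes a zinc-finger transcriptional repressor.

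Both 3′ ends are shown because droplet libraries and poly(A)-selected bulk start from runs of A, and these ends hold the encoded A-rich tracts of Malat1 and Neat1. In the GRCm38 build (GENCODE vM21) Malat1 was a lincRNA at chr19:5795690-5802672 on the minus strand, of 6983 exonic bases with no intron. Neat1 lay 22035 bases away at chr19:5824708-5845478 on the same strand, of 20771 exonic bases with no intron. Capitals mark 3 stretches of 13, 16 and 11 bases, 40 of the 110 bases printed, that both RNAs share letter for letter, the U-rich motifs (written as T) and the A-rich tract among them.
Malat1 at chr19:5795982-5796091: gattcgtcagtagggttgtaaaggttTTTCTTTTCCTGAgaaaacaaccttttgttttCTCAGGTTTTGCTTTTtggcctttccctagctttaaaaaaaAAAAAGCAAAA
Neat1 at chr19:5824708-5824817: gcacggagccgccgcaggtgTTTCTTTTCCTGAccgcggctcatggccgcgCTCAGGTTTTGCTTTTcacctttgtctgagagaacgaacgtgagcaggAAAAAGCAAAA
The tract of Malat1 includes 12 A in a row, the window of Neat1 has no A run of that length, and 4.07% of all annotated transcripts, or 18.7% of those within 10% of the length of Malat1, hold such a run.

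The 61 bases after the tract of Malat1, the tRNA-like part that is cut away, are given next. The end of the short Neat1 transcript follows, with its poly(A) signal AATAAA in capitals, a hexamer found in the last 40 bases of 25.8% of all transcripts.
Malat1 at chr19:5795921-5795981: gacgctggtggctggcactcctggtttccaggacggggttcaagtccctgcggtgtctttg
Neat1 at chr19:5842307-5842366: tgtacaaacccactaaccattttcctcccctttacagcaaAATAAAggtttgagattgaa
Kcnq1ot1, at chr7:143203458-143296549 on the minus strand, is an unspliced RNA of 93092 bases inside Kcnq1, which runs on the plus strand from 143106362 to 143427042. The RNA holds 8 runs of at least 12 A, the longest of 41 (capitals), far from its end.
Kcnq1ot1 at chr7:143226915-143227015: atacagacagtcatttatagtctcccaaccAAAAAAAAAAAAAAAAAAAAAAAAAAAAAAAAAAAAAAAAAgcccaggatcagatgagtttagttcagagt
The other genes hold introns. Exons take 58.87% of Meg3 (chr12:109541001-109571726, plus), 0.9905% of Gm28153 (chr1:17741915-17805417, minus, antisense to and overlapping Crispld1), 0.5271% of the lincRNA Gm29266 (chr14:60485208-60599031, plus) and 4.008% of Zbtb20 (chr16:42875881-43642602, plus).

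Among the droplet libraries Malat1 was high in nuclei and in warm cryopreserved cells and lowest in methanol-fixed cells. In nuclei it took 182015, 183655 and 190984 CPM after sucrose, 175501, 166018 and 161280 CPM in males, 152043, 140268 and 152097 CPM after 1x2000g and 112088, 97386 and 100018 CPM in females after 3x500g. In fresh cells it took 47642, 68280 and 70987 CPM after cold and 52512, 69121 and 47201 CPM after warm dissociation, 38438, 44786 and 62571 CPM in Balb/c males and 31272, 27848 and 29602 CPM in females. Cryopreserved cells held 75506, 84292 and 82744 CPM (cold), 132003, 103553 and 115256 CPM (warm) and 58966, 48992 and 49504 CPM (females). Methanol-fixed cells held 7594, 7825 and 5068 CPM (cold) and 5941, 7460 and 5250 CPM (warm). Neighbours in this order whose libraries overlapped were warm cryopreserved cells with female 3x500g nuclei, the successive steps from cold fresh cells through warm fresh and female cryopreserved cells to male cells, and the methanol groups with each other; all other neighbouring steps were free of overlap.

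The order of the preparations was not the same for Neat1. Male nuclei led at 4169 ± 71.1 CPM (SD, n = 3), followed by the female nuclei preparations, of which 3x500g and sucrose each overlapped 1x2000g but not each other (2268 ± 288, 1927 ± 278 and 1832 ± 59.7 CPM for 3x500g, 1x2000g and sucrose). Warm cryopreserved cells held 687 ± 116 CPM. Male cells (628 ± 194), female cryopreserved (471 ± 97.1), cold fresh (449 ± 60.5), female fresh (425 ± 76.6), warm fresh (394 ± 35.5) and cold cryopreserved cells (369 ± 3.47 CPM) each overlapped their neighbour. Methanol-fixed cells stood clear below, at 193 ± 22.9 CPM after cold and 149 ± 5.81 CPM after warm dissociation, and also clear of each other.

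The contrast that chose the genes can be set out for single classes. Meg3 did not follow it in females, with 2.81 CPM (109 UMIs) in fresh cells and 0.24 CPM (22 UMIs) in 3x500g nuclei. Over all barcodes the mean level in 3x500g nuclei divided by that in fresh cells was 3.45 for Malat1, 6.64 for Neat1, 5.25 for Kcnq1ot1 and 13.2 for Zbtb20 in males, and 3.49, 5.33, 3.04 and 10.1 in females. The ratio differed between classes. For Malat1 it ran from 2.19 in endothelial-like to 4.25 in macrophage-like barcodes in males, and from 1.68 in endothelial-like to 4.52 in connecting tubule-like barcodes in females, with proximal tubule-like at 3.85 and 4.47. Neat1 ran from 3.65 (ascending limb-like) to 14.9 (macrophage-like) in males and from 2.98 (thin limb-like) to 9.29 (macrophage-like) in females. Zbtb20 reached 56.0 and 21.1 in macrophage-like barcodes, the first from 7 UMIs in male cells (39.64 to 135.9 CPM in single libraries). These ratios depend on the scaling: with TMM factors the female log2 ratio of Malat1 over all barcodes was 1.37 in place of 1.80. Only 4.008% of Zbtb20 is exon against all of Malat1, Neat1 and Kcnq1ot1, and intronic reads were counted in nuclei alone. The part of that difference in counting in the ratios was not tested.

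In C57BL/6J whole cells Malat1 was spread very unevenly over the barcodes of some classes. Each barcode was thinned to 500 UMIs and shallower ones were left out (2960 of 11851 in cold fresh cells, 2456 of 16947 in female fresh cells). Among proximal tubule-like barcodes of cold fresh cells, 21.07–34.33% had no Malat1 UMI over the 3 libraries, 27.03–41.12% had 1 to 4, 5.638–13.19% had 5 to 19 and 23.49–37.08% had 20 or more, up to 236 to 268 of the 500. These bins are of unequal width, the last is open, and they were chosen after the data were seen. Their shares alone do not show separate groups of barcodes. The medians where Malat1 was present were 9, 22 and 4 UMIs in libraries 1, 2 and 3. Warm fresh cells had less in the middle bin, with 33.36–54.02% at 0, 1.148–2.803% at 5 to 19 and 14.87–22.06% at 20 or more. Ascending limb-like barcodes of warm fresh cells had a like middle, with 14.93–37.21% at 0, 24.03–34.84% at 1 to 4, 1.163–5.43% at 5 to 19 and 32.56–44.8% at 20 or more; in cold fresh cells these shares were 3.15–21.43%, 9.901–16.67%, 8.661–12.87% and 52.38–74.8%. Endothelial-like barcodes of the same cold fresh libraries had 0–2.0% at 0 and 86.0–97.61% at 20 or more. Within proximal tubule-like barcodes of cold fresh cells, those at 0 and those with Malat1 were compared by library medians of total UMIs without mitochondrial genes. Those at 0 had more in library 1 (1502 against 1417) and fewer in libraries 2 and 3 (1144 against 1407 and 937 against 982). Mitochondrial shares were 28.04%, 35.23% and 35.62% at 0 and 28.85%, 36.28% and 35.62% with Malat1. In warm fresh cells those at 0 had fewer total UMIs in libraries 1 and 3 but not 2 (1461 against 1557, 1329 against 1361 and 1641 against 1340). Ascending limb-like barcodes of warm fresh cells at 0 had fewer in each library (892–1086 against 1646–2503). So had proximal tubule-like barcodes after cold (984–1210 against 1158–1394) and warm dissociation with methanol (949.5–1046 against 1305–1547). In frozen female proximal tubule-like barcodes those at 0 had fewer total UMIs (1217–1256 against 2462–3746). In fresh females those at 0 had fewer in libraries 1 and 2 (1982 against 2418 and 1661 against 2854) but not in library 3 (2037 against 1899). Ascending limb-like barcodes of fresh females at 0 had fewer in each library (1586 against 4481, 1087 against 2502 and 1557 against 4092). In cold fresh library 2 the ascending limb-like medians were 629.5 against 1467.

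The shares of the same class differed between some preparations and overlapped between others. In Balb/c females 34.31–50.42% of fresh proximal tubule-like barcodes were at 0 and 12.57–13.65% at 20 or more. At 5 to 19 libraries 1 and 2 had 15.73% and 24.0%, while library 3 had 8.663%. After cryopreservation, with 68 to 113 barcodes a library, 27.43–35.29% were at 0 and 30.88–44.25% at 20 or more. In Balb/c male cells 17.18–36.96% were at 0, 9.036–12.97% at 5 to 19 and 33.47–63.8% at 20 or more. After cold dissociation and methanol 54.71–58.28% were at 0 and 0.5538–1.355% at 20 or more. In nuclei at most 0.0555% were at 0 and 97.5–100% had 20 or more. No kidney class is known to lack Malat1, so no class could serve as a level of free RNA beside these shares.

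**Figure D1:**
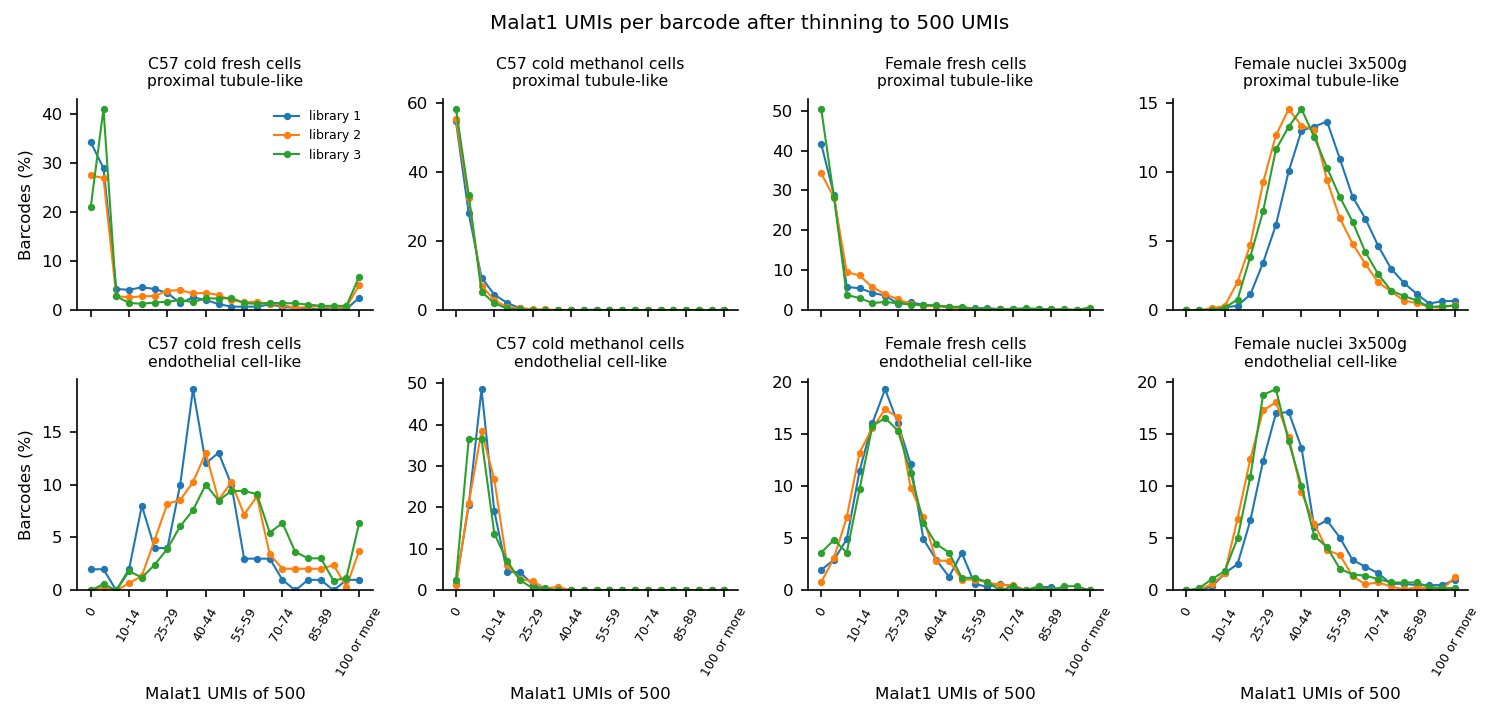
Share of barcodes (percent) by number of Malat1 UMIs among 500 UMIs, for proximal tubule-like and endothelial-like barcodes in 4 preparations; each line is 1 library. In cold fresh cells 5.638–13.19% of proximal tubule-like barcodes are at 5 to 19 UMIs and 23.49–37.08% at 20 or more, whereas 86.0–97.61% of endothelial-like barcodes are at 20 or more.

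Over all barcodes the share without a Malat1 UMI was 19.3 ± 6.19% in cold fresh, 38.9 ± 10.6% in warm fresh, 29.8 ± 5.79% in female fresh and 17.6 ± 6.26% in male cells (mean ± SD, n = 3). It was 1.81 ± 0.253% in cold, 3.27 ± 1.65% in warm and 3.65 ± 0.889% in female cryopreserved cells, and 42.7 ± 3.04% and 58.2 ± 1.88% in cold and warm methanol-fixed cells. Cryopreserved libraries held few proximal tubule-like barcodes (0.3683–0.9063% after cold and 0.7–1.992% after warm dissociation, against 59.26–70.25% and 70.59–73.42% fresh), and that share moved with the one without Malat1. With thinning to 1000 UMIs the share was 12.25% in cold fresh, 27.24% in warm fresh, 20.97% in female fresh, 6.852% in male, 30.32% in cold methanol-fixed and 44.74% in warm methanol-fixed cells. Without thinning it was 26.1% in warm fresh and 15.9% in female fresh cells, where the shallower barcodes were counted too.

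Methanol fixation was set against fresh cells of the same dissociation to ask what is retained after fixation and storage, which cannot be told apart. Malat1, Neat1, Kcnq1ot1 and Zbtb20 could be tested and all were lower after methanol. Malat1 fell by 3.03 on the log2 scale (SE 0.20) after cold and by 3.12 (SE 0.23) after warm dissociation in sums over all barcodes, Neat1 fell by 1.04 (SE 0.14) and 1.35 (SE 0.08), and Zbtb20 fell by 1.24 (SE 0.10) and 1.40 (SE 0.18), by edgeR's quasi-likelihood test with Benjamini-Hochberg adjustment. The calls at an adjusted p under 0.05 held without any single library. Of all genes tested, 28.2% (cold) and 17.3% (warm) were called. Kcnq1ot1 held 52.99, 63.15 and 44.88 CPM in cold fresh and 5.68, 9.8 and 6.07 CPM (13, 49 and 32 UMIs) in cold methanol-fixed cells, and fell by 2.68 (SE 0.21). In warm methanol-fixed cells it was listed at 0 in 2 libraries and stood at 4.37 CPM (14 UMIs) in the other, against 29.11, 36.83 and 24.5 CPM in warm fresh cells, and the call there rests on those listed zeros. Meg3, Gm28153 and Gm29266 could not be tested here.

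The fall of Malat1 was called in every class tested. After cold dissociation all 14 classes were called, from −3.49 (SE 0.18, adjusted p 5.51e-07) in proximal tubule-like to −2.30 (SE 0.15, adjusted p 8.76e-07) in B cell-like barcodes. In proximal tubule-like barcodes Malat1 went from 41128, 57665 and 57461 CPM to 5490, 4762 and 3128 CPM, and in endothelial-like barcodes from 79829, 101740 and 111690 CPM to 16219, 16836 and 13855 CPM. Fresh and fixed libraries did not overlap in either. With the mouse as a block the monocyte-like call was lost (−2.89, adjusted p 0.103). Counting all 4 RNAs, 34 of 39 gene and class pairs were called after cold dissociation, all of them lower, against 20.7% of all pairs, and 22 of 27 after warm, all lower, against 9.13%.

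Neat1 was called lower in most classes. After cold dissociation this was so in 8 of 12 classes, led by podocyte-like (−1.93, SE 0.23), connecting tubule-like (−1.85), intercalated-like (−1.65) and ascending limb-like barcodes (−1.63). In podocyte-like barcodes it went from 744.5, 530.6 and 834.3 CPM to 218.9, 169.4 and 213.1 CPM. The 4 classes without a call were all immune or mural. They were T cell-like (−0.86, SE 0.46), mesangial or mural-like (−0.67, SE 0.55), monocyte-like (−0.66, SE 0.43) and macrophage-like (−0.48, SE 0.27). A difference from the called classes was not tested. Kcnq1ot1 was called in 4 of 4 classes (−3.15 in endothelial-like, −2.71 in ascending limb-like, −2.63 in podocyte-like and −2.52 in proximal tubule-like) and Zbtb20 in 8 of 9. Without cold fresh library 2 the calls of Zbtb20 in distal convoluted tubule-like (−1.16, adjusted p 0.0553), mural-like (−1.12, adjusted p 0.0918) and principal-like barcodes (−1.14, adjusted p 0.0959) were lost, and without cold methanol library 2 those in mural-like (−1.64, adjusted p 0.0934) and principal-like barcodes (−1.36, adjusted p 0.0729).

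After warm dissociation Malat1 fell in all 10 classes tested, over a range from −5.29 to −1.57: connecting tubule-like −5.29 (SE 0.26), proximal tubule-like −3.58 (SE 0.23), distal convoluted tubule-like −3.57, ascending limb-like −2.65, T cell-like −2.32, endothelial-like −1.96 (SE 0.15) and macrophage-like −1.57 (SE 0.14). Other calls rested on single libraries: intercalated-like (−3.48) was lost without warm fresh library 1 (adjusted p 0.107) or 2 (0.106) or warm methanol library 2 (0.128), principal-like (−2.99) without warm fresh library 1 (0.0788) or 3 (0.0934), and B cell-like (−1.92) without warm methanol library 1 (0.0668). Neat1 was called in 7 of 10 classes, among them connecting tubule-like (−2.61), principal-like (−2.56), proximal tubule-like (−1.32) and ascending limb-like (−1.07), which held without any single library. Its endothelial-like call (−1.06, adjusted p 0.0356) was lost with the mouse as a block.

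The difference between both methanol effects was tested by itself. It was called for 1 of 31 gene and class pairs and for 0.00327% of all pairs tested, which was this same pair: Malat1 in connecting tubule-like barcodes, lower by a further −2.15 (SE 0.28, adjusted p 0.000117) after warm dissociation. The warm methanol libraries held 1531, 1218 and 1866 CPM there, in 40, 70 and 20 barcodes with 49, 78 and 38 Malat1 UMIs. Cold methanol-fixed libraries held 7930, 8728 and 5903 CPM, and the fresh ones 52957, 65903 and 60334 CPM (cold) and 44818, 70424 and 39943 CPM (warm). The groups did not overlap between cold and warm methanol. Without cold fresh library 1 or without warm fresh library 2 the number of called pairs was 2, and with clusters at a coarser resolution, where this pair had no value, it was 0.

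**Figure D2:**
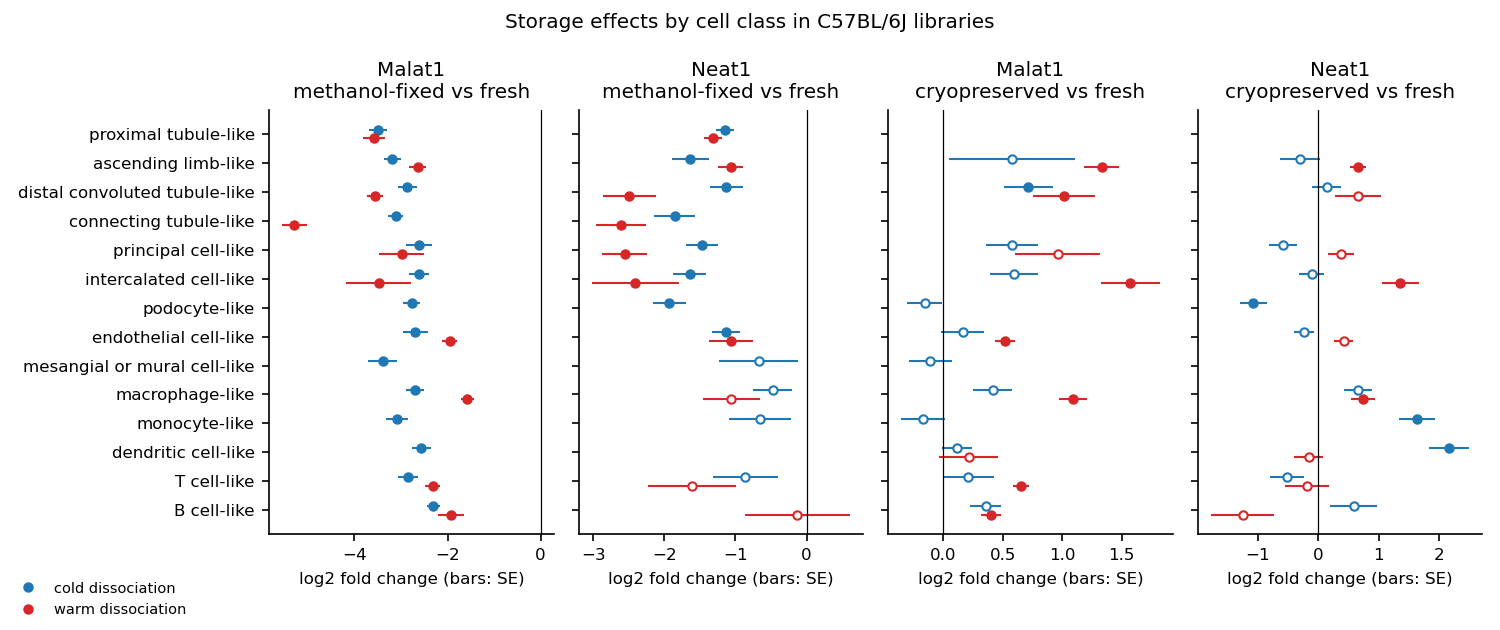
Log2 fold change (± SE) of Malat1 and Neat1 by class after methanol fixation or cryopreservation against fresh cells, cold dissociation in blue and warm in red; filled points were called at an adjusted p under 0.05. All Malat1 values after methanol lie below 0, from −5.29 to −1.57, while after warm dissociation and cryopreservation the called Malat1 values lie between 0.40 and 1.57.

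Cryopreservation was compared with fresh cells in 3 experiments, and Malat1 did not fall in any of them over all barcodes. Over all barcodes after warm dissociation, Malat1 rose by 0.70 (SE 0.17, adjusted p 0.00913) and Zbtb20 fell by 0.78, calls that held without any single library. Neat1 rose by 0.45 (adjusted p 0.0169), a call lost without warm fresh library 2 (adjusted p 0.0641) or 3 (0.0625) or warm cryopreserved library 3 (0.0571). After cold dissociation Malat1 was at 0.17 (adjusted p 0.481), Neat1 fell by 0.49 (adjusted p 0.0165, lost without cold fresh library 2, 0.0505, or 3, 0.0534) and Zbtb20 fell by 0.96 (SE 0.11, adjusted p 0.00032). Zbtb20 was called in 0 of 6 classes after warm and 0 of 10 after cold dissociation by edgeR, with 0 and 2 at an unadjusted p under 0.05, and in none of them by DESeq2. In these sums 59.7% (warm) and 50.5% (cold) of all genes were called, and proximal tubule-like barcodes were nearly absent from the frozen libraries.

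Within classes Malat1 rose in 7 of 9 after warm dissociation and freezing; principal-like (0.96, adjusted p 0.112) and dendritic cell-like barcodes (0.21, adjusted p 0.664) were not called. In intercalated-like barcodes it went from 61376, 73294 and 31376 CPM to 162570, 137320 and 138270 CPM, a rise of 1.57 (SE 0.25, adjusted p 0.000624). In ascending limb-like barcodes it went from 52538, 74596 and 67416 CPM to 163930, 138070 and 142960 CPM, a rise of 1.33 (SE 0.15, adjusted p 3.81e-05). Frozen and fresh libraries did not overlap in either. It also rose in macrophage-like (1.09, adjusted p 3.1e-05), T cell-like (0.65) and endothelial-like barcodes (0.51). Its calls in distal convoluted tubule-like (1.01) and B cell-like barcodes (0.40) were less firm: the first was lost without warm fresh library 1 (adjusted p 0.155), 2 (0.151) or 3 (0.122) or warm cryopreserved library 1 (0.0842) or 3 (0.105), and the second without warm cryopreserved library 2 (0.0758) or 3 (0.072). Together with Neat1 in 3 classes, 10 of 25 pairs were called, all higher, against 9.53% of all pairs. Neat1 rose by 0.66 (SE 0.13) in ascending limb-like barcodes, from 724, 808.3 and 852.4 CPM to 1146, 1209 and 1080 CPM. Its other calls, macrophage-like (0.74, lost without warm fresh library 3, adjusted p 0.0678) and intercalated-like (1.35, lost without warm fresh library 1, 0.0612, or 3, 0.063), each rested on a library.

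After cold dissociation and freezing, Neat1 rose in dendritic cell-like and monocyte-like barcodes and fell in podocyte-like ones. Its values in macrophage-like (0.66, adjusted p 0.0589), B cell-like (0.59) and T cell-like barcodes (−0.52) were not called. In dendritic cell-like barcodes it went from 62.2, 73.4 and 207.8 CPM (4, 9 and 23 UMIs) to 561.5, 505.2 and 464.8 CPM, a rise of 2.16 (SE 0.33, adjusted p 0.000127). In monocyte-like barcodes it rose by 1.63 (SE 0.29, adjusted p 0.00023), to 969.2, 693.2 and 824.4 CPM from 239.9 and 361.9 CPM in the cold fresh libraries with at least 10 such barcodes. In podocyte-like barcodes it fell by 1.08 (SE 0.22), to 366, 384.4 and 271.6 CPM, a call lost without cold cryopreserved library 3 (adjusted p 0.0654). The remaining calls were Kcnq1ot1 in intercalated-like (−1.99, lost without cold cryopreserved library 3, adjusted p 0.0696, and by DESeq2, 0.175) and Malat1 in distal convoluted tubule-like barcodes (0.71, lost without cold fresh library 1, 0.0646, cold cryopreserved library 2, 0.0884, or 3, 0.252, and by DESeq2, 0.582). In all 5 of 36 pairs were called against 8.01% of all pairs. The number was 3 without cold fresh library 1 or cold cryopreserved library 2, 2 without cold cryopreserved library 3, 9 without cold fresh library 3, and 10 with the mouse as a block.

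The warm and cold effects of freezing were also compared directly. Over all barcodes the Neat1 effect was higher after warm than after cold dissociation by 0.91 (SE 0.19, adjusted p 0.017), and 6.01% of all genes were called. Of 29 gene and class pairs 1 was called, against 0.710% of all pairs: Neat1 in dendritic cell-like barcodes, where the warm effect was lower by −2.21 (SE 0.45, adjusted p 0.00402). Frozen warm libraries held 726.2, 519.6 and 525.3 CPM and fresh warm ones 809.3, 655.7 and 531.7 CPM. The cold freezing call and the warm against cold call of Neat1 in this class use the same cold fresh libraries as this difference. They are therefore not separate results. Cold methanol-fixed libraries, which do not enter this difference, were as low as the cold fresh ones, at 118.8, 127.1 and 109.9 CPM (3, 5 and 5 UMIs). The number of called pairs was 4 without cold fresh library 1 and 3 without warm fresh library 2.

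In Balb/c females, frozen for a shorter time and spun harder, Malat1 in proximal tubule-like barcodes went from 22616, 20950 and 21154 CPM to 44388, 49205 and 45772 CPM (78, 117 and 70 barcodes). This was a rise of 0.91 (SE 0.12, adjusted p 3.29e-05). Malat1 also rose in principal-like (0.48) and intercalated-like barcodes (0.53), and in distal convoluted tubule-like (0.74, lost without female fresh library 2, adjusted p 0.0732) and ascending limb-like ones (0.62, lost without female fresh library 1, 0.0735, or 2, 0.065, or cryopreserved library 2, 0.0725). Neat1 rose in proximal tubule-like barcodes, from 327.8, 319.7 and 418.5 CPM to 432.5, 770.3 and 627.5 CPM (0.62, adjusted p 0.00696, lost without female cryopreserved library 2, 0.247). Its rise in principal-like barcodes (0.61, adjusted p 0.00904) was lost without female fresh library 1 (0.0842) or 2 (0.0649) or cryopreserved library 2 (0.0695), and with coarser clusters (0.118). In principal-like barcodes Kcnq1ot1 went from 94.5, 89.2 and 74.6 CPM to 26.3, 58.3 and 34.7 CPM, a fall of 1.30 (SE 0.23, adjusted p 0.000596), or a value of −0.66 (adjusted p 0.0638) with coarser clusters. In intercalated-like barcodes its fall of 0.96 was lost without female fresh library 2 (adjusted p 0.151) or cryopreserved library 1 (0.0933) or 3 (0.102) and by DESeq2 (0.189). In all 9 of 49 pairs were called, 7 of them higher, against 5.59% of all pairs. Without female fresh library 2 the number was 5. Over all barcodes, where 57.8% of genes were called, Malat1 rose by 0.40 (adjusted p 0.0161, lost without female fresh library 1, 0.0594, or 2, 0.0527), while Neat1 (−0.28), Kcnq1ot1 (−0.07) and Zbtb20 (0.12) were not called. Proximal tubule-like barcodes made up 50.43–57.83% of fresh and 5.055–7.583% of frozen female libraries.

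Between warm and cold dissociation of fresh cells, calls within classes were all of Neat1. In dendritic cell-like barcodes Neat1 was at the 62.2 to 207.8 CPM given above after cold and at 531.7 to 809.3 CPM (27, 45 and 35 UMIs) after warm dissociation, a rise of 2.49 (SE 0.40, adjusted p 0.000909). In principal-like barcodes it went from 430.4, 493.9 and 554.7 CPM to 1459, 1013 and 1377 CPM, a rise of 1.36 (SE 0.19, adjusted p 2.36e-05). Neither pair of groups overlapped. The calls in macrophage-like (1.23) and ascending limb-like barcodes (−0.86) depended on single libraries: the first was lost without warm fresh library 1 (adjusted p 0.0891) or cold fresh library 2 (0.123), the second without warm fresh library 1 (0.142), 2 (0.0702) or 3 (0.0637) or cold fresh library 2 (0.0603) or 3 (0.28). These were 4 of 34 pairs, against 4.01% of all pairs; the number was 7 without cold fresh library 1 and 2 without warm fresh library 1 or cold fresh library 2. Malat1 was called in 0 of 11 classes by edgeR and by DESeq2, and passed an unadjusted p of 0.05 in 1 class with each. Its edgeR values ran from −0.48 (SE 0.14, adjusted p 0.203) in distal convoluted tubule-like to 0.09 (SE 0.26) in dendritic cell-like barcodes. Intercalated-like barcodes were at −0.43 (SE 0.22) and proximal tubule-like at 0.08 (SE 0.17). The study, testing cells and not libraries, reported Malat1 as higher after cold dissociation in more than 1 cell type.

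Over all barcodes, where 15.2% of genes were called, only Kcnq1ot1 was called among the members. It fell by 0.65 after warm dissociation (SE 0.18, adjusted p 0.0394), from 52.99, 63.15 and 44.88 CPM to 29.11, 36.83 and 24.5 CPM, without overlap. The call was lost without cold fresh library 1 (adjusted p 0.0586), 2 (0.148) or 3 (0.0537) or warm fresh library 1 (0.13) or 3 (0.125). By class it was at 0.13 (SE 0.26) in proximal tubule-like, −0.545 (SE 0.26) in endothelial-like, −0.95 (SE 0.34) in ascending limb-like and −1.82 (SE 0.51) in intercalated-like barcodes. None of these was called. Podocyte-like barcodes, the class with the most Kcnq1ot1, were 2.334–3.599% of cold and 0–0.06698% of warm fresh libraries, and the part of that in the fall was not tested.

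The 3 ways of making nuclei from female kidneys differed in Malat1 by up to 0.84 on the log2 scale over all barcodes. Of all genes 34.9% were called between 1x2000g and 3x500g, 45.3% between sucrose and 3x500g and 13.1% between sucrose and 1x2000g. Over all barcodes Malat1 rose by 0.84 from 3x500g to sucrose, a call that held without any single library but not when listed zeros were left out (adjusted p 0.068). It rose by 0.51 from 3x500g to 1x2000g (adjusted p 0.0276), a call lost without 3x500g library 1 (0.0665) or 3 (0.0639) or 1x2000g library 1 (0.168), 2 (0.0587) or 3 (0.0655). From 1x2000g to sucrose it rose by 0.36 (adjusted p 0.0162, lost without sucrose library 1, 0.0537, or 2, 0.0935). In distal convoluted tubule-like nuclei, the class with the most Malat1, it held 165600, 155030 and 157260 CPM after 3x500g, 250530, 224790 and 251250 CPM after 1x2000g and 306170, 321800 and 324490 CPM after sucrose, with no overlap between preparations. From 3x500g to sucrose Malat1 was called in 10 of 12 classes, all higher, from 0.65 in endothelial-like to 1.29 in connecting tubule-like nuclei; the call in proximal tubule-like nuclei (0.82) was lost without sucrose library 2 (adjusted p 0.0544).

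Kcnq1ot1 moved in opposite directions in different classes. From 3x500g to 1x2000g it rose in connecting tubule-like (1.04, SE 0.16, adjusted p 9.99e-05), intercalated-like (0.91, SE 0.12), principal-like (0.58, SE 0.10) and distal convoluted tubule-like nuclei (0.57, SE 0.11). In the same libraries it fell in proximal tubule-like (−0.63, SE 0.09, adjusted p 0.00341), thin limb-like (−0.64), ascending limb-like (−0.53) and endothelial-like nuclei (−0.44). In intercalated-like nuclei the libraries went from 334, 258.3 and 267.4 CPM to 541.7, 490.7 and 500.2 CPM, and in proximal tubule-like nuclei from 552.1, 515.5 and 527.7 CPM to 355.1, 367 and 308.6 CPM. The order of both classes was thus turned over. After sucrose connecting tubule-like (0.84) and intercalated-like nuclei (0.58) were higher than after 3x500g. So were principal-like nuclei (0.38, lost without 3x500g library 2, adjusted p 0.0568, or 3, 0.0802, or sucrose library 1, 0.0577, or 2, 0.0786), while distal convoluted tubule-like nuclei were not called (0.09, adjusted p 0.625). Proximal tubule-like (−0.71), thin limb-like (−0.67), ascending limb-like (−0.65) and endothelial-like nuclei (−0.56) were lower; both comparisons share the 3x500g libraries. Over all barcodes Kcnq1ot1 fell by 0.46 (1x2000g) and 0.57 (sucrose).

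The difference between classes was then tested within libraries, each class minus proximal tubule-like nuclei. This test was chosen after the values above were seen and rests on the same libraries, so it is no independent support for them. For 1x2000g it was 1.57 (SE 0.14, adjusted p 2.86e-06) for intercalated-like and 1.27 (SE 0.13, adjusted p 0.000233) for principal-like nuclei, where 0.366% and 0.375% of all genes were called. For sucrose it was 1.29 (SE 0.15) and 1.08 (SE 0.13), where 0.101% and 1.12% were called. No other member was called in these tests.

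Kcnq1, the potassium channel gene on the other strand of the same locus, was set beside Kcnq1ot1 in each class, with no test of one against the other. From 3x500g to 1x2000g Kcnq1 rose in proximal tubule-like (0.79, SE 0.07) and podocyte-like nuclei (1.18), where its mean level was low (90.1 to 156.5 CPM and 280.2 to 619.8 CPM). Podocyte-like Kcnq1ot1 fell by 0.52, a call lost without 1x2000g library 3 (adjusted p 0.059). In intercalated-like, principal-like, connecting tubule-like and distal convoluted tubule-like nuclei, where Kcnq1 was at 1153, 974.3, 1429 and 645.6 CPM, its changes were −0.23, −0.23, −0.37 and −0.30 and were not called. After sucrose these 4 fell, by 0.67, 0.39, 0.59 and 0.56. Kcnq1ot1 lies wholly inside an intron-bearing gene and nuclei were counted on intronic reads. Within the stretch of Kcnq1ot1, reads of the pair can thus be told apart by strand alone.

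**Figure D3:**
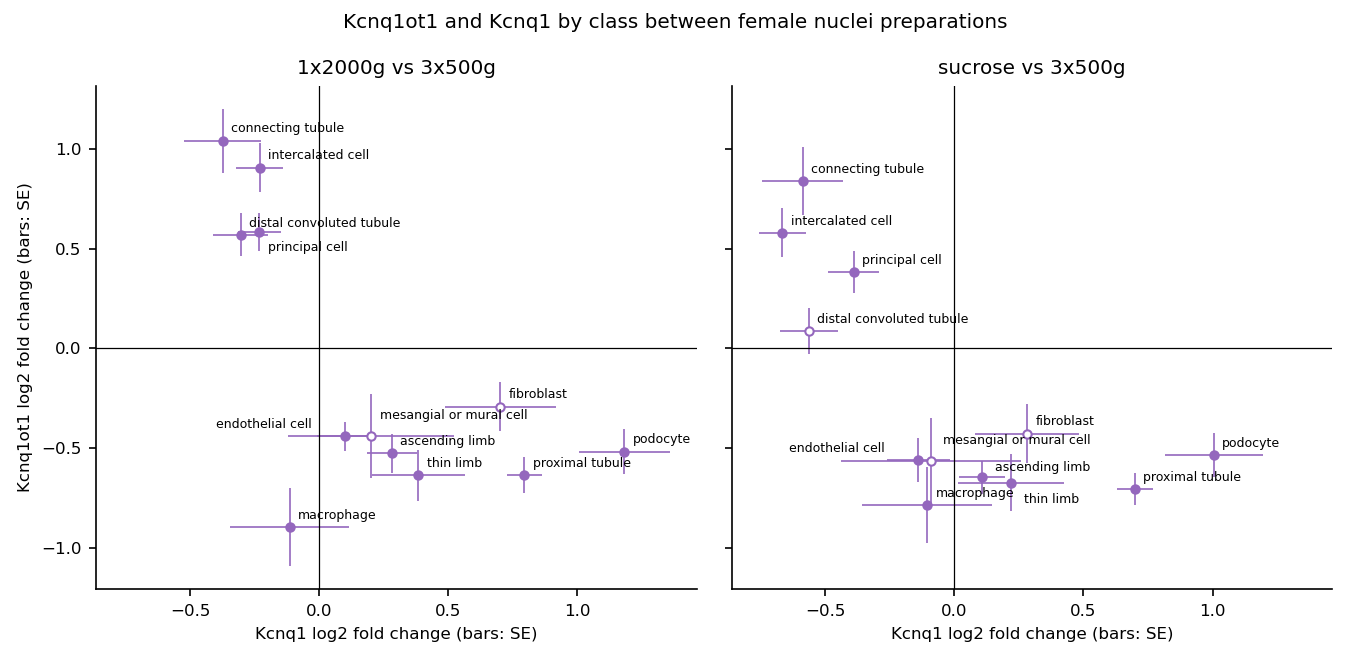
Log2 fold change of Kcnq1 (x axis) and Kcnq1ot1 (y axis), each ± SE, by class for 1x2000g and sucrose nuclei against 3x500g nuclei; filled points were called for Kcnq1ot1. Proximal tubule-like nuclei lie at 0.79 and −0.63 after 1x2000g, and intercalated-like nuclei at −0.23 and 0.91.

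Counting all members, 25 of 61 pairs were called from 3x500g to 1x2000g (12 higher, 15.4% of all pairs called), 39 of 62 from 3x500g to sucrose (20 higher, 21.1%) and 17 of 63 from 1x2000g to sucrose (15 higher, 5.01%). Neat1 was not called over all barcodes between any of the 3 (−0.25 and −0.32 against 3x500g). It fell in endothelial-like nuclei by 0.74 after 1x2000g and by 0.63 after sucrose.

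Gm28153 and Gm29266 were above 0 in all 12 libraries of nuclei and listed at 0 in male cells, and they were highest in different classes. Cells were counted on exonic reads alone, and exons take 0.9905% of Gm28153 and 0.5271% of Gm29266. The part of that counting in the zeros of cells was not tested. Each gene is listed in 15 droplet libraries, and Gm28153 in 0 bulk libraries. Gm28153 stood at 685.3, 1009 and 1043 CPM in male nuclei and at 32.92, 44.38 and 34.38 CPM in female 3x500g nuclei. Sex, age and chemistry differ between these sets and cannot be told apart. Proximal tubule-like nuclei held 79.14% of its UMIs in named classes in males and 73.17% in females after 3x500g. They made up 53.03–59.07% and 42.97–44.3% of the barcodes of these libraries. In this class it had 817.8, 1256 and 1251 CPM in males and 43.4, 55.3 and 45.7 CPM in females. Male nuclei of other classes held it too, with 842 ± 414 CPM in podocyte-like, 781 ± 163 in endothelial-like and 420 ± 75.8 CPM in intercalated-like nuclei (mean ± SD). From 3x500g to sucrose Gm28153 rose by 1.02 over all barcodes and by 0.96 (SE 0.12, adjusted p 0.00123) in proximal tubule-like nuclei, to 77.7, 98.5 and 107.7 CPM, and by 1.50 in ascending limb-like nuclei. From 1x2000g to sucrose it rose by 0.80 over all barcodes, a call lost without 1x2000g library 1 (adjusted p 0.089) or 2 (0.0554) or sucrose library 1 (0.054), 2 (0.0999) or 3 (0.0947).

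Gm29266 was highest in podocyte-like nuclei, at 2355, 1963 and 1956 CPM after 3x500g against a mean of 143.3 CPM in ascending limb-like and 50.64 CPM in distal convoluted tubule-like nuclei. Since ascending limb-like nuclei were many, they held 49.21% of its UMIs in named classes and podocyte-like nuclei 38.82%. Male podocyte-like nuclei held 1220, 979.3 and 1239 CPM. Gm29266 fell by 1.21 over all barcodes from 3x500g to sucrose and by 0.52 from 1x2000g to sucrose, and it fell by 1.02 both in ascending limb-like (SE 0.19) and in distal convoluted tubule-like nuclei (SE 0.19) from 3x500g to sucrose. Its fall of 0.67 from 3x500g to 1x2000g over all barcodes was lost without 1x2000g library 2 (adjusted p 0.0509). In bulk it stayed at or below 0.94 CPM.

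**Figure D4:**
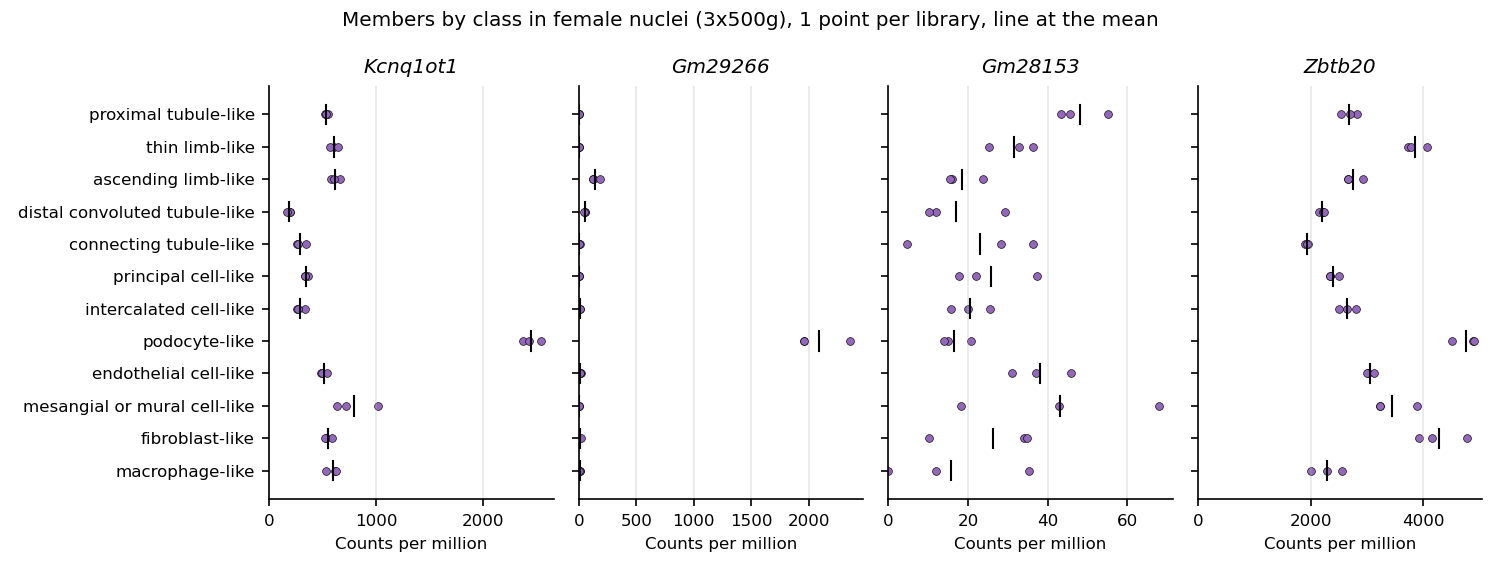
Level of Kcnq1ot1, Gm29266, Gm28153 and Zbtb20 in counts per 1000000 by class in female 3x500g nuclei; points are libraries and the line is their mean. Kcnq1ot1 (mean 2448 CPM), Gm29266 (2091 CPM) and Zbtb20 (4764 CPM) are highest in podocyte-like nuclei, and Gm28153 lies at 43.4 to 55.3 CPM in proximal tubule-like nuclei.

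Podocyte-like barcodes also had the most Kcnq1ot1. They held 2373, 2431 and 2539 CPM after 3x500g, 1583, 1811 and 1502 CPM after 1x2000g and 1473, 1457 and 1622 CPM after sucrose. In podocyte-like whole cells it stood at 1198, 1047 and 1053 CPM in fresh females, 402.9, 333.1 and 345.2 CPM in males and 296.1, 243.6 and 291.2 CPM in cold fresh C57BL/6J cells. Proximal tubule-like nuclei held a mean of 531.8 CPM and distal convoluted tubule-like nuclei 182.4 CPM after 3x500g. Zbtb20 had a narrower spread, from 4764 CPM in podocyte-like and 4282 CPM in fibroblast-like to 1933 CPM in connecting tubule-like nuclei; from 3x500g to sucrose it fell by 0.39 over all barcodes, and by 0.46 in proximal tubule-like, 0.47 in ascending limb-like and 0.63 in thin limb-like nuclei.

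The order of the classes was taken from mean levels for each gene and group. In cold fresh cells Malat1 was highest in mesangial or mural-like (mean 148590 CPM), podocyte-like (104380) and endothelial-like barcodes (97753) and low in proximal tubule-like (52085) and dendritic cell-like ones (31352). In Balb/c females mesangial or mural-like (58674), podocyte-like (54278) and endothelial-like barcodes (47857) led in fresh cells, and distal convoluted tubule-like (159300), principal-like (129450) and connecting tubule-like nuclei (127350) after 3x500g. In sucrose nuclei distal convoluted tubule-like (317490) and connecting tubule-like nuclei (274040) led, endothelial-like had 123520 and fibroblast-like the least (88770 CPM). Neat1 was highest in ascending limb-like barcodes of cold fresh cells (1403 CPM), male cells (1297 CPM) and female 3x500g nuclei (3228 CPM), but in thin limb-like barcodes of female fresh cells (1009 CPM) and of male (4811 CPM), 1x2000g (3000 CPM) and sucrose nuclei (2645 CPM), and in principal-like barcodes of warm fresh (1283 CPM) and warm cryopreserved cells (1541 CPM). It was low in B cell-like cells after cold dissociation (82.95 CPM) and in fibroblast-like 3x500g nuclei (586.1 CPM).

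Meg3 was rare here and, in female whole cells, lay mostly in endothelial-like barcodes. In Balb/c female cells 105 of its 109 UMIs in fresh and 162 of 163 in cryopreserved libraries lay in endothelial-like barcodes. There it stood at 0 (listed), 45.7 and 123 CPM fresh and at 59.5, 104 and 97.7 CPM frozen, with overlap. Over all barcodes it was called higher after freezing (2.09, adjusted p 0.0479), with 1 fresh library listed at 0. The call was lost without female fresh library 2 (adjusted p 0.115) or cryopreserved library 1 (0.0627), 2 (0.114) or 3 (0.121) and by DESeq2 (0.293). The part of the share of endothelial-like barcodes in that rise was not tested. Within endothelial-like barcodes Meg3 was not called by edgeR (0.63, SE 0.56, adjusted p 0.712). In nuclei it was at 1.7 CPM or less, with 22 UMIs in female and 12 in male 3x500g nuclei. Of the 22, 10 lay in endothelial-like and 6 in mesangial or mural-like nuclei.

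In bulk, lower levels can come from fewer cells of a type or from less RNA per cell, and these cannot be told apart. Bulk levels were set per kilobase of all annotated exons so that genes can be compared. In rRNA-depleted libraries Malat1 stood at 3409 ± 410 CPM per kb in male intact kidney, 1672 ± 58.3 in cold and 1892 ± 219 in warm suspensions, and Neat1 at 81.4, 40.8 and 66.7. In poly(A)-selected libraries Malat1 stood at 208.5 ± 40.5 CPM per kb in female intact kidney and 194.8 ± 29.5 in the suspension, and Neat1 at 56.3 and 71.3. On this scale Malat1 was above Neat1 in every bulk group, but the gap was far smaller in the poly(A)-selected ones. The scale divides Neat1 by its long form; without it the poly(A)-selected suspension held 1360 CPM of Malat1 and 1482 CPM of Neat1, the opposite order. For the gap, selection, sex and age cannot be told apart. Both strains had the wide gap in rRNA-depleted libraries. Kcnq1ot1 stood at 1.51 to 2.37 CPM per kb in rRNA-depleted and at 0.14 to 0.23 in poly(A)-selected groups. Whether bulk reads were counted by strand is not given in the sources used here, so bulk values of Kcnq1ot1 and of Kcnq1 around it may hold reads of each other.

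Warm against cold suspensions were also compared in bulk, where 8.68% of all genes were called. Neat1 went from 877.6, 848.8 and 814.9 CPM to 1382, 1612 and 1165 CPM, a rise of 0.69 (SE 0.10, adjusted p 0.00136) with no overlap; in the droplet libraries of fresh cells it was at −0.05 over all barcodes. Kcnq1ot1 went from 143.1, 141.1 and 137.1 CPM to 169.6, 211.9 and 157.6 CPM, which was not called (0.33, adjusted p 0.0505) but was by DESeq2 (0.034), edgeR's exact test (0.0272) and without warm bulk library 3 (0.0246). In the droplet libraries of fresh cells Kcnq1ot1 was at −0.65 over all barcodes, the opposite direction, a call that depended on single libraries. Malat1 (0.16) and Zbtb20 (−0.16) were not called. These were 1 of 4 genes tested. Without warm bulk library 3 it was 2.

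Intact female kidney was set against its suspension, where 20.0% of all genes were called, to see what dissociation changes. Kcnq1ot1 held 18.4, 23.25 and 21.5 CPM intact and 14.19, 10.49 and 14.48 CPM in suspension, a rise of 0.74 in intact kidney (SE 0.13, adjusted p 0.00367). Zbtb20 held 226.9, 267.6 and 224.3 CPM intact and 155.7, 152.6 and 158.6 CPM in suspension, a rise of 0.67 (SE 0.07, adjusted p 0.000168). Both were free of overlap. Malat1 (0.14), Meg3 (−0.03) and Neat1 (−0.30, adjusted p 0.0804, but 0.0184 by DESeq2 and 0.0352 by the exact test) were not called, so 2 of 5 genes tested were.

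Genes tied to the same nuclear bodies and loci were followed as lists, in sums over all barcodes and in bulk, each count read beside all genes. Nuclear speckle and splicing genes, the company of Malat1, fell after methanol: 13 of 23 were lower and 1 higher after cold dissociation (all genes 13.6% lower and 14.5% higher) and again 13 lower and 1 higher after warm (10.3% and 6.97%). The median change of the list was −0.52 and −0.42, against −0.07 and −0.22 over all genes. Srrm2, a speckle scaffold, fell by 1.31 and 1.49, with Thrap3 (−0.97) and Rbm25 (−1.12) after cold and Acin1 (−1.08) and Srrm1 (−0.94) after warm. After freezing more of them were called higher than lower: 11 higher and 1 lower in cold (20.7% and 29.7%), 16 and 1 in warm (25.5% and 34.2%), and 14 and 0 in female cells (27.9% and 29.9%), led by Clk1 (1.13), Srsf7 (1.12) and Srrm2 (0.65), by Sf3b1 (0.87), Srsf2 (0.80) and Srsf5 (0.68), and by Luc7l3 (0.51), Pnn (0.47) and Srrm2 (0.43). The list's medians were 0.32, 0.55 and 0.31, against −0.16, −0.16 and −0.00 over all genes. These are sums over all barcodes, from which most proximal tubule-like barcodes were lost on freezing, as given above, and the part of that loss in these counts was not tested.

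In the other comparisons the shares of all genes called higher and lower, beside which the counts of every list are to be read, were 8.27% and 6.9% in warm against cold fresh cells, 5.42% and 3.26% in warm against cold bulk, 19.5% and 15.4% from 3x500g to 1x2000g, 23.9% and 21.4% from 3x500g to sucrose, 7.87% and 5.21% from 1x2000g to sucrose and 12.1% and 7.91% in intact kidney. Of the speckle genes, warm against cold fresh cells had 1 higher and 2 lower (Luc7l3 −0.57, Srsf1 −0.43, Clk1 0.52), and warm against cold bulk 4 and 0 (Clk1 0.73, Srsf5 0.34, Srsf3 0.31). Nuclei had 1 higher and 10 lower from 3x500g to 1x2000g (Luc7l3 −0.47, Srsf6 −0.58, Son −0.34), 9 and 6 from 3x500g to sucrose (Pnn 1.30, Srsf7 0.94, Srsf6 −0.67) and 14 and 1 from 1x2000g to sucrose (Pnn 1.34, Srsf7 0.68, Snrnp70 0.57). Intact kidney had 0 higher and 12 lower than the suspension (Srsf2 −0.39, Luc7l3 −0.42, Clk1 −0.51).

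Paraspeckle protein genes, partners of Neat1, were 18. After methanol 4 were lower and 0 higher in cold (Hnrnpr −0.79 and Hnrnpa1 −0.41 among them) and 6 and 0 in warm cells (Sfpq −0.93 and Hnrnpr −0.68 among them), with medians of −0.29 and −0.39 (all genes −0.07 and −0.22). After freezing 3 were higher and 1 lower in cold (Hnrnpa1 0.82 and Nudt21 0.40 among them), 7 and 1 in warm (Hnrnpa1 0.99 and Sfpq 0.76 among them) and 7 and 1 in female cells (Hnrnpa1 0.57 and Smarca4 0.54 among them), with medians of 0.06, 0.18 and 0.21 (all genes −0.16, −0.16 and −0.00). Warm against cold gave 0 higher and 1 lower in cells (Hnrnpr −0.42), and intact kidney 0 and 4 (Cpsf7 −0.22, Tardbp −0.22, Ewsr1 −0.19). Between nuclei preparations 2 of 17 tested were higher and 6 lower, 5 and 6, and 4 and 1, in the order used above, beside the shares of all genes given there.

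Genes of other kinds were counted in the same way. Of 8 housekeeping genes, 1 fell after methanol in cold (Actb −1.51) and 2 in warm cells (Actb −0.97, Rplp0 −0.49), with medians of −0.01 and −0.03, and 7 and 5 rose from 3x500g to 1x2000g (Fth1 0.94, Tpt1 1.27, Eef1a1 0.82) and to sucrose (Fth1 0.90, Tpt1 0.93, Eef1a1 0.76). The counts higher and lower were 3 and 0 in warm against cold cells, 5 and 2, 3 and 3, and 1 and 6 after freezing in cold, warm and female cells, 0 and 0 from 1x2000g to sucrose (1 at an unadjusted p under 0.05), 1 and 0 in warm bulk and 0 and 1 in intact kidney. The 5 testable neighbours of Malat1 and Neat1 on chromosome 19 gave 0 calls by edgeR in both methanol comparisons and 0 at an unadjusted p under 0.05, with medians of −0.04 and −0.17. They gave 0 calls also in warm against cold fresh cells and from 1x2000g to sucrose (1 and 2 at an unadjusted p under 0.05). In freezing, in the other comparisons of nuclei and in bulk they gave 1 or 2 calls (among them Ltbp3 1.41 and Slc25a45 −1.08 after warm freezing, Ltbp3 0.98 and Frmd8 0.39 in female freezing, Frmd8 −0.35 and Ltbp3 −0.44 after 1x2000g, Frmd8 −0.43 after sucrose).

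Zinc-finger genes of the ZBTB family other than Zbtb20 fell with it after methanol in 6 of 12 cases in cold (Zbtb7a −1.27, Zbtb38 −0.84, Zbtb1 −1.04) and 2 of 11 in warm cells (Zbtb7a −1.35, Zbtb38 −1.04), with 0 higher and medians of −0.64 and −0.79. The counts higher and lower were 0 and 2 in warm against cold cells, 2 and 3, 4 and 0, and 5 and 1 after freezing (cold, warm and female), 1 and 3, 3 and 5, and 1 and 0 between nuclei, 2 and 0 in warm bulk and 3 and 0 in intact kidney (Zbtb44 0.74), to be read beside the shares of all genes given with the speckle genes. Imprinted genes beside Kcnq1ot1 and Meg3 gave 1 and 0 of 8 after methanol in cold cells (Phlda2 0.63) and 0 and 0 in warm (1 at an unadjusted p under 0.05), with medians of −0.06 and −0.28. In warm against cold cells they gave 1 and 2 of 8, with the podocyte gene Cdkn1c falling by 4.86, from 185–283 CPM to 2.86–10.9 CPM, beside Slc22a18 (0.69) and Cd81 (−0.44). After freezing they gave 0 and 2 in cold, 3 and 2 in warm and 2 and 3 in female cells, where 20.7% and 29.7%, 25.5% and 34.2%, and 27.9% and 29.9% of all genes were called higher and lower (Phlda2 −3.02, Slc22a18 −2.89, Osbpl5 −0.73); Phlda2 was listed at 0 in all frozen C57BL/6J libraries. Between nuclei they gave 4 and 2, 3 and 1 (Cd81 1.70 and 1.58), and 0 and 0 (3 at an unadjusted p under 0.05), and in bulk 1 and 0 (warm, Kcnq1 0.90) and 1 and 2 (intact, Kcnq1 −0.51).

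Other long noncoding RNAs were few enough to name. After methanol Gm26917 fell by 1.46 and 1.60 and Snhg11 by 0.87 and 1.31, while Airn rose by 0.50 and 0.76, in 7 tested after cold and 5 after warm dissociation, so noncoding RNAs did not all move one way. In warm against cold cells 2 of 7 rose (Gm26917 1.74, Snhg11 0.81). After freezing 1 rose and 3 fell in cold, 1 and 3 in warm, and 0 and 1 in female cells (Snhg11 −1.72), beside the shares of all genes given for freezing. The C57BL/6J falls rest on listed zeros: Snhg11 and Ftx were listed at 0 in all 3 cold frozen libraries and Airn in 1, and Snhg11, Airn and Pvt1 in all 3 warm frozen ones. Nuclei gave 1 higher and 1 lower, 2 and 1, and 2 and 1, warm bulk 1 and 0 (Firre 0.41) and intact kidney 2 and 0 (Snhg11 0.71 among them).

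The genes whose profile over the 9 cell conditions (27 libraries) was most like that of Malat1 were Foxn3, Pdcd4, Slc24a5, Ppwd1 and Kmt2d, with mean absolute differences of 0.330 to 0.420 in log2(CPM + 1) after centring, against a median of 1.13 over 8585 genes. Neat1 came 392nd, at 0.753. For Neat1 they were 2810403A07Rik, Ric1, Cbx3, Sgms1 and Tet2, at 0.135 to 0.188 against a median of 0.598, and Malat1 came 6325th.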

How the data were processed

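The 39 droplet libraries were made with 10x Genomics chemistry and the 15 bulk libraries by RNA-seq, from 3 mice a group. Per the study's methods and the submitters' processing notes, the authors aligned droplet reads to mm10 with Cell Ranger 2.1.1, counting exonic reads for cells and exonic and intronic reads for nuclei, called cells by EmptyDrops, and removed barcodes by gene number, mitochondrial share and, for nuclei, UMI number. They deposited raw UMI counts, and for bulk the authors deposited raw read counts per gene from STAR 2.6.1a and featureCounts; strandedness was not given. In the droplet files up to 6658 genes of a library are listed at 0 and few are held by under 10 barcodes.

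From these counts, UMIs were summed per library over all barcodes and per class, for classes with at least 10 barcodes in at least 2 libraries of each group, without mitochondrial genes. Classes came from Leiden clustering (scanpy 1.11.5, leidenalg 0.10.2, 2000 variable genes, 30 components, 20 neighbours, resolution 2, or 1 as an alternative) that left out the 7 genes, other noncoding RNAs and stress, hemoglobin, ribosomal and sex-linked genes. A class name needed 3 markers held by a share of 0.1 of its barcodes and enriched 1.5 times. Doublets were kept. Sums were tested with edgeR 4.0.16 (quasi-likelihood, TMM, filterByExpr, Benjamini-Hochberg over all genes of a class, called at an adjusted p under 0.05) between the 2 groups compared; in R 4.3.3, DESeq2 1.42.0 was an alternative. On simulated counts for warm against cold fresh cells (11808 genes) the test recovered 76.8% of log2 changes of 1 and 100% of 2, and for 1x2000g against 3x500g nuclei (17104 genes) 84.7% and 100%. The self-test changed known genes in draws from the real means, in sums over all barcodes and at 1 fixed dispersion. Genes with few counts and very abundant genes such as Malat1 were not among those changed. The recovery therefore does not cover sums of single classes or Malat1.

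The members and gene lists were chosen with earlier results of these data known. The text names all 7 members, up to 3 called genes with the smallest adjusted p per list and comparison, and the 5 genes most like Malat1 and Neat1. The bins of Malat1 UMIs, the test of Kcnq1ot1 between classes, the replicate block and the treatment of listed zeros were added after seeing the data.

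By codes in the barcode names, the 6 groups of C57BL/6J droplet libraries came from the same 3 mice. The correlation of same-mouse deviations from group means over 9757 genes ran from −0.068 to 0.19 for warm and cold fresh, 0.0028 to 0.06 for cold and −0.038 to 0.022 for warm cryopreserved, and 0.27 to 0.34 for cold and 0.079 to 0.18 for warm methanol-fixed libraries. Between other mice it ran from −0.26 to 0.23, −0.085 to 0.029, −0.067 to 0.091, −0.25 to −0.046 and −0.12 to 0.015, in the same order. A fit with the mouse as a block was an alternative. Values of some genes of the lists are not reported here.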

Additional observations from a re-analysis of the deposited data

Results flagged for a closer look

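In 7 cases a test of the difference between effects was called. The Neat1 effect of freezing over all barcodes was higher after warm than after cold dissociation by 0.913 on the log2 scale (SE 0.19). The composition of these libraries shifted too, as given above, and the part of that was not tested. In dendritic cell-like barcodes the difference between the Neat1 effects of freezing was −2.21 (SE 0.45), the opposite direction, with 4, 9 and 23 Neat1 UMIs in the cold fresh libraries. Those libraries also enter the Neat1 calls of cold freezing and of warm against cold fresh cells in this class. The methanol effect on Malat1 in connecting tubule-like barcodes differed by −2.15 (SE 0.28) between warm and cold dissociation, with 49, 78 and 38 Malat1 UMIs in the warm methanol libraries.

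The other cases were Kcnq1ot1 between classes of nuclei, each minus proximal tubule-like nuclei and against 3x500g. For 1x2000g the difference was 1.57 (intercalated-like) and 1.27 (principal-like), and for sucrose 1.29 and 1.08. Both preparations share the 3x500g libraries, and the classes of a preparation share their libraries. The test was chosen after the changes within each class were seen. No cause was tested. Groups of 3 libraries were not screened for single libraries that stand apart.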

How the results depend on the processing

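Counting each called value for a single class once under each alternative, 1944 stayed on their side of the threshold in the same direction and 192 fell below it; over all barcodes and in bulk, for called and uncalled values, the numbers were 615 and 41, with 14 newly called and 15 changing sign, all of the latter from uncalled values near 0. For Malat1 in warm against cold fresh cells these were −0.003473 (DESeq2), −0.003469 (RLE), −0.009724 (no filter), −0.002497 (mitochondrial genes kept), −0.008136 (all groups in 1 fit), −0.003449 (listed zeros left out) and −0.007399 (listed zeros set to 9 UMIs). Leaving out single libraries gave −0.21 to 0.13 for it, −0.16 to 0.23 for Zbtb20 and −0.15 to 0.058 for Neat1 in the same comparison, −0.25 to 0.15 for Kcnq1ot1 in warm and −0.13 to 0.0031 in female cryopreserved against fresh cells, and −0.16 to 0.087 for Neat1 in sucrose against 1x2000g nuclei.

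The number of called pairs without the filter was 8 in warm against cold fresh cells, 8 in cold cryopreserved against fresh cells and 5 in the difference between freezing effects. A required log2 change of 1 left 5 in warm and 1 in female cryopreserved cells, 2, 15 and 6 between nuclei (1x2000g and sucrose against 3x500g, sucrose against 1x2000g) and 0 in each bulk comparison, where 1 and 2 had been called by edgeR. In bulk warm against cold, DESeq2, RLE, no filter and the exact test of edgeR each called 2. For the difference between methanol effects leaving out listed zeros gave 2 and Leiden resolution 1 gave 0, where Malat1 in connecting tubule-like barcodes had no value. Leaving out single libraries gave 2 to 7 (warm against cold fresh), 2 to 9, 7 to 10 and 5 to 9 (cryopreserved cold, warm, female), 31 to 36 and 16 to 19 (methanol cold, warm), 18 to 23, 27 to 39 and 12 to 18 (nuclei), 1 to 4 and 1 to 2 (differences between freezing and between methanol effects), and 1 to 2 and 2 to 3 (bulk).

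With the mouse as a replicate block the cold cryopreserved comparison called 10 pairs and the difference between methanol effects 2; among the members' calls named in the text, Neat1 in endothelial-like barcodes of warm methanol-fixed cells was also lost (adjusted p 0.0895).

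In nuclei against cells of females the log2 ratio with TMM scaling was 1.369 (Malat1), 1.984 (Neat1), 1.171 (Kcnq1ot1) and 2.894 (Zbtb20), and with Malat1 left out of the total 1.72 (Kcnq1ot1) and 3.448 (Zbtb20). The share of barcodes without Malat1 after thinning to 1000 UMIs was 12.25% (cold fresh), 27.24% (warm fresh), 30.32% (cold methanol), 44.74% (warm methanol), 6.852% (male) and 20.97% (female fresh), and without thinning 26.1% (warm fresh) and 15.89% (female fresh); thinning also leaves out shallower barcodes, so depth and the set of barcodes changed together. Leaving out listed zeros moved the median change of all genes from −0.16 to 0.01 in cold and in warm cryopreserved and from −0.22 to −0.02 in warm methanol-fixed cells. A fit of all groups was not run for female cells, where it is the fit of the 2 groups.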
